A study of Mus musculus with 2 samples.

Results

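Type I interferon response genes were examined in the retinal pigment epithelium (RPE)-choroid of mice lacking or carrying a working aryl hydrocarbon receptor gene. The set was given as a list of 39 gene symbols covering interferon-induced antiviral genes, guanosine triphosphatases (GTPases), signal transducers, interferon regulatory factors and viral RNA sensors. All 39 were found by name among the 23420 gene rows of the count table, and all 39 passed the filter on low counts. The RPE-choroid is the pigmented cell layer under the retina together with the vascular coat behind it. One group carries a homozygous targeted allele (genotype AhR -/-, strain B6.129-AhRtm1Bra/J) and the other is wild type (AhR +/+, C57BL6/J). Both were untreated and 11 to 13 months old, with 3 animals each, and RNA of 2 eyes was pooled per library. The allele is present in all cells of the animal, so no cell type in the tissue keeps the intact gene.

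Type I interferons are secreted proteins that cells release on sensing viral or misplaced nucleic acid. They bind the receptor chains Ifnar1 and Ifnar2, whose kinases phosphorylate STAT proteins such as Stat2, and these join Irf9 and enter the nucleus. The complex binds interferon-stimulated response elements in promoters and switches on genes whose products degrade viral RNA, block its translation or trap particles at membranes. In the eye, RPE cells and resident macrophages both express RNA sensors and can make this response.

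The core of that binding element is visible in the promoters of some of these genes, and 4 that carry it upstream of the start are shown as examples. Other members carry it there too, and Bst2 was singled out after its values were seen. The core searched was GAAA, any 2 bases, GAAA on either strand (TTTC, any 2 bases, TTTC when read on the other; overlapping copies were counted separately) in the RefSeq window from 250 bases before to 50 bases after each start, build GRCm38.p6. Of 33 members with a window, 17 held at least 1 core, 51.5%. Of 27025 genes with a window, 1079 did (3.99%). The stretches below run 5′ to 3′ on the gene's own strand with the core in capitals. Isg15 is at chr4:156200850-156200921 (minus strand), Ifit1 at chr19:34640760-34640838 (plus), Ifit3 at chr19:34583348-34583441 (plus) and Bst2 at chr8:71537562-71537627 (minus).

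Isg15: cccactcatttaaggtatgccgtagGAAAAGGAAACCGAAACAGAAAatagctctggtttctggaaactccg
Ifit1: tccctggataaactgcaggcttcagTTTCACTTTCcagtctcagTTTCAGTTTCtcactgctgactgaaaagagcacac
Ifit3: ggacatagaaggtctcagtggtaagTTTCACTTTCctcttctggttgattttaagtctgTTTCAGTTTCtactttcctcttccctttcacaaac
Bst2: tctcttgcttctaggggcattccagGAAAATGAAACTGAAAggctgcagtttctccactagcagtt

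Isg15 held 3 overlapping cores, Ifit1 and Ifit3 2 separate cores each, and Bst2 2 overlapping cores. The other members with a core were Stat2, Ifih1, Ddx58, Oas1a, Oas3, Eif2ak2, Gbp2, Gbp3, Irgm1, Irgm2, Igtp, Ifitm2 and Ifitm3. A match is a description of letters and does not show that a factor binds there. Usp18, Dhx58, Oas2, Mx1, Mx2 and Parp14 had no window in the table.

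Library totals over genes ran from 18058725 to 28692624 counts, and every member was counted in all libraries except Mx1, with 0 counts in 1. Levels are CPM, counts scaled to library size with TMM (trimmed mean of M-values) factors. Where 3 values are set against 3, they are knockout-labelled animals 1, 2, 3 and then wild-type animals 1, 2, 3. Ahr stood at 40.6 to 45.4 CPM in the knockout-labelled libraries and at 19.7 to 26.0 CPM in the wild type. Whole-gene counts do not resolve the targeted part and give no check of the labels, so the libraries are called knockout-labelled. RPE markers such as Rpe65 (2987, 1326 and 1423 against 2201, 2685 and 2394 CPM) and Ttr were abundant in all 6 libraries. The RPE marker Best1 was near 0 (1.72 to 3.55 CPM). The 10 RPE markers summed to 37466, 21548 and 23418 CPM against 28942, 39812 and 34258 CPM, with 3 of 10 log2 fold changes above 0. Knockout-labelled animals 2 and 3 thus had the lowest sums. None of the members lies on chromosome 12, where Ahr is (0 of 39).

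Most of the interferon response genes stood slightly higher in the knockout-labelled libraries, and none passed the main test. The log2 fold change (knockout-labelled over wild type) was above 0 for 33 of 39 members and below 0 for 6, against 51.2% above 0 over the 15796 genes tested. The median was 0.29 for the members and 0.01 for all genes tested. With edgeR's quasi-likelihood test and Benjamini-Hochberg adjustment over all genes, 0 of 39 members passed at an adjusted p under 0.05, where the background was 8 genes (0.0506%). Limma-voom also called 0 members, among 13 genes (0.0823%), and DESeq2 and the edgeR exact test each called 4, against 493 genes (3.12%) and 357 genes (2.26%) in all. Those 4 were the same in both tests: Irf3, Isg15, Oasl1 and Ifitm1. At an unadjusted p under 0.05 the edgeR test held 13 members, 12 higher and 1 lower, where the background was 14.2% of genes (7.55% higher and 6.62% lower). The libraries of the groups did not overlap for 12 members, against 20.0% of all genes. In the authors' deposited table, which lists all 39 members, Ifitm1, Oasl1, Isg20 and Isg15 stood at an FDR under 0.05, where the background was 2.37% of its rows.

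**Figure D1:**
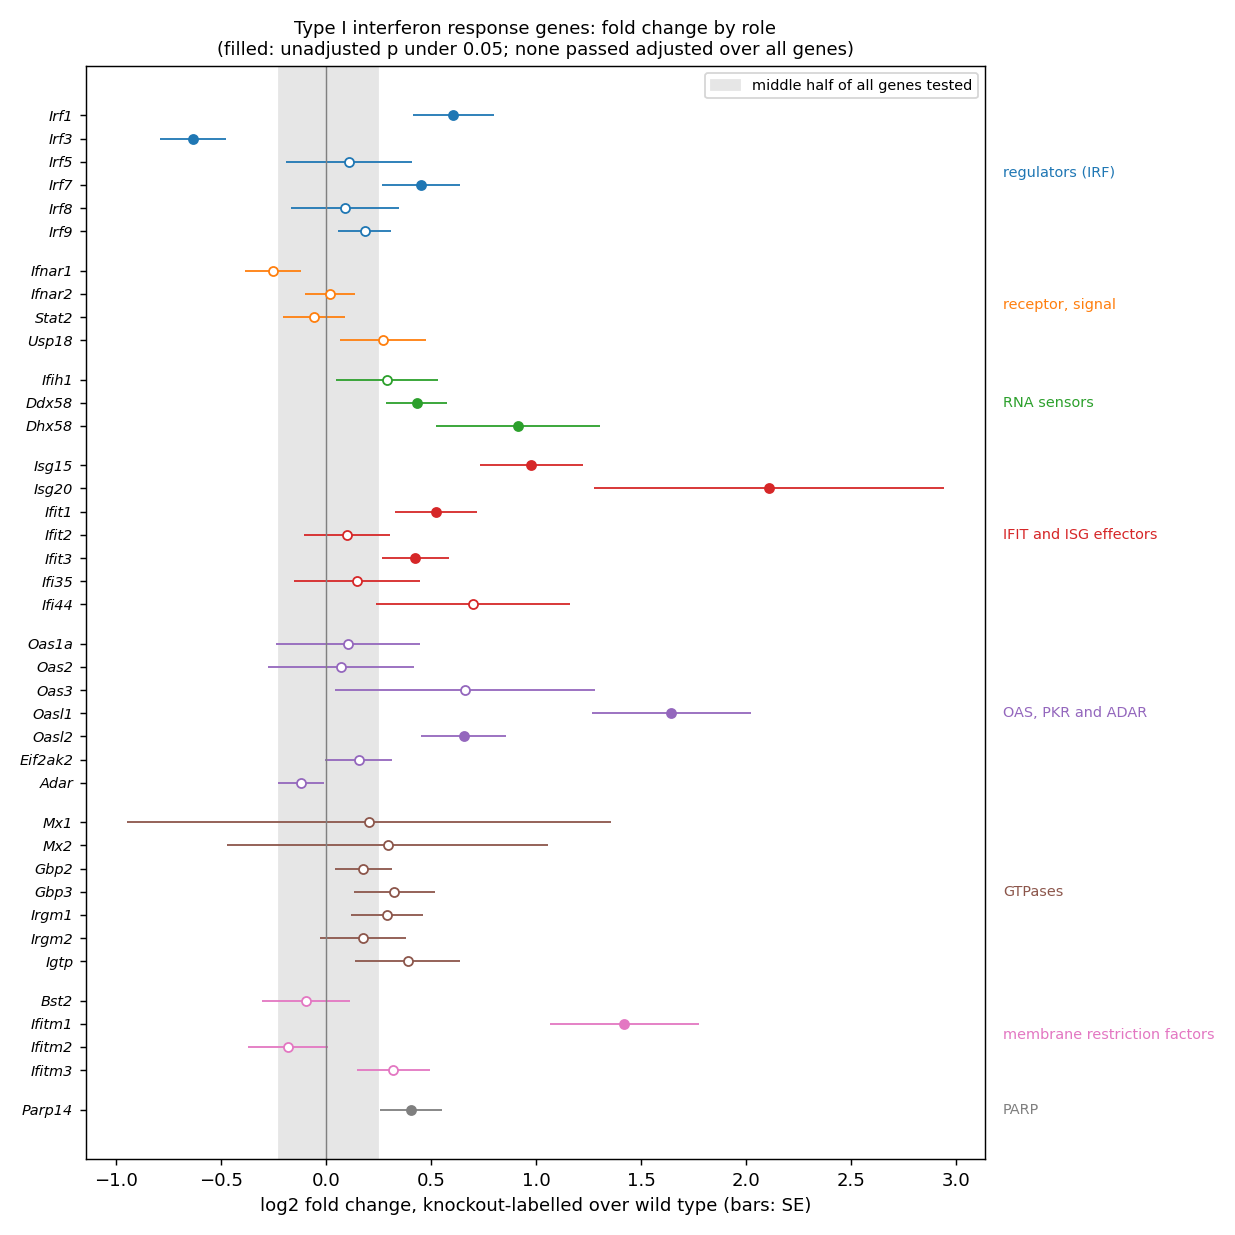
Log2 fold change (x axis, knockout-labelled over wild type, bars are SE, n = 3 animals per group) of the 39 genes, grouped by role. Of the 39 points 33 lie right of 0, the filled ones mark the 13 genes at an unadjusted p under 0.05, and the grey band spans the quartiles of all genes tested.

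The shift was not even over the libraries. Wild-type animal 3 held the lowest CPM of the 6 libraries for 21 of 39 members (53.8%), while over all genes tested it was lowest for 15.1%. A knockout-labelled library was highest for 33 members (84.6%), against 56.2% of all genes tested. Knockout-labelled animal 3 was highest for 13, animal 1 for 11 and animal 2 for 9. Relative to the wild-type mean (log2 of CPM plus 0.5), the median member was at 0.28, 0.22 and 0.29 against 0.06, 0.04 and -0.16. Without wild-type animal 3 the median log2 fold change of the members was 0.18, and 6 members were at an unadjusted p under 0.05 (10.8% of all genes). Without knockout-labelled animal 3 that count was also 6, against 10.7% of all genes. Without knockout-labelled animal 1 the edgeR test called 5 members, Irf1, Irf3, Oasl1, Oasl2 and Ifitm1, among 795 genes (4.95%), and 13 were at an unadjusted p under 0.05 (23.0% of all genes). With a replicate block (0.00633% of genes called), a GC correction (0.0443%), a sex covariate (0.00633%), or without wild-type animal 1 (0.0559%) or 2 (0.00620%), the edgeR test called 0 members. At an unadjusted p under 0.05 the block held 9 (10.1% of all genes), and leaving out wild-type animal 2 held 11 (8.55%). With knockout-labelled animal 1 left out, 20 members had groups that did not overlap, where 42.1% of all genes did. With wild-type animal 2 left out, that count was 20 as well, against 26.4%. Summed macrophage and microglia markers, of cells able to make this response, were 2840, 3097 and 2866 CPM against 2365, 3402 and 2190 CPM, with the log2 fold change of 10 of 14 above 0. Most of each sum came from Lyz2, and the other 13 markers, a split made after the values were seen, summed to 1348, 929.6 and 949.9 CPM against 1002, 1276 and 958.8 CPM. The order of the libraries thus differs with and without Lyz2. Neutrophil markers summed to 136.9, 74.96 and 89.23 CPM against 21.92, 19.91 and 16.65 CPM, without overlap. Most of each knockout-labelled sum came from Ltf, at 87.97, 46.04 and 62.20 CPM against 6.62, 1.82 and 3.25 CPM. Of these markers, Ltf passed in edgeR (adjusted p = 0.0389). S100a8 and S100a9 were also higher without overlap, while Csf3r and Retnlg overlapped and Camp had a log2 fold change of -0.20. Ngp, Elane and Mpo had 0 counts in all libraries. Summed markers of lymphocytes and plasma cells, and of dendritic cells (with the member Bst2 among them), overlapped between the groups. Of 13 endothelium markers, 2 had log2 fold changes above 0. The part of any of these cells in the result was not tested. In such bulk tissue, fewer cells of a type and less RNA per cell cannot be told apart.

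**Figure D2:**
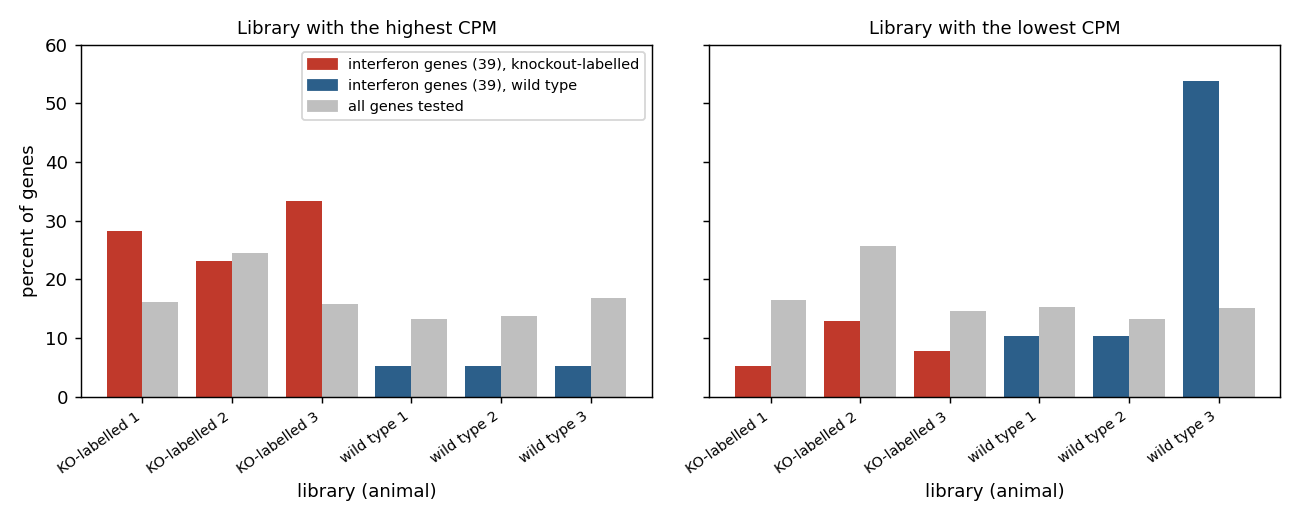
Percent of genes (y axis) for which each library (x axis) held the highest or the lowest CPM, for the 39 interferon response genes (coloured bars) and for all genes tested (grey bars). Wild-type animal 3 was lowest for 53.8% of the interferon genes and 15.1% of all genes.

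Per length, the genes of small membrane proteins had the highest levels, and Oas3 and the Mx genes the lowest. Mean CPM per kilobase of merged exons was 357 for Ifitm3, 140 for Ifitm1, 129 for Ifitm2, 55.2 for Bst2 and 47.9 for Ifit3. At the other end, Oas3 stood at 0.32, Mx1 at 0.39, Mx2 at 0.72 and Ifi44 at 0.77 CPM per kilobase.

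Among the interferon regulatory factors, the transcription factors that start or relay the response, Irf3 had the lowest and Irf1 the highest log2 fold change. Irf3, the constitutive factor activated by nucleic acid sensing, stood at 36.6, 35.7 and 27.2 CPM against 57.2, 49.9 and 47.4 CPM in the wild type. All knockout-labelled libraries lay below all wild-type libraries. Its log2 fold change was -0.64 (SE 0.16, edgeR adjusted p = 0.173), the lowest of the 39. It passed with DESeq2 (adjusted p = 0.032), with the edgeR exact test (adjusted p = 0.0458). Leaving out knockout-labelled animal 1, the edgeR quasi-likelihood test gave an adjusted p of 0.0493. A correction for transcript GC content, chosen with the data known, gave -0.46. Irf3 spans 44997648 to 45002848 of chromosome 7 (plus strand, GRCm38), and in the GENCODE M21 annotation 2.6% of its exon bases overlap Bcl2l12 on the opposite strand.

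Irf1, a factor induced by interferons, stood at 58.1, 103 and 85.8 CPM against 52.0, 58.4 and 52.0 CPM in the wild type. Animals 2 and 3 of the knockout-labelled group were above the wild type and animal 1 was level with it. The log2 fold change was 0.61 (SE 0.19, edgeR adjusted p = 0.235), and without knockout-labelled animal 1 it was 0.80 and passed (edgeR adjusted p = 0.0222). Irf7, which amplifies interferon production once induced, stood at 17.4, 17.6 and 21.8 CPM against 12.6, 14.96 and 14.0 CPM. Its groups did not overlap (log2 fold change 0.45, SE 0.19, edgeR adjusted p = 0.323). Irf9, the DNA-binding partner of the STAT complex, stood at 77.4, 65.8 and 64.2 CPM against 63.4, 63.2 and 55.8 CPM. Its groups touch without overlap, and the log2 fold change of 0.19 (SE 0.13) is small beside the spread. Irf5 and Irf8, factors of macrophages and other myeloid cells, overlapped between the groups (5.80 to 12.6 and 14.3 to 24.3 CPM over the 6 libraries).

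Receptor chains and signal transducers did not separate in 1 direction. Ifnar1, a chain of the type I interferon receptor, stood at 60.8, 49.7 and 57.4 CPM in the knockout-labelled libraries and at 63.6, 62.1 and 74.6 CPM in the wild type. All knockout-labelled values were below all wild-type values (log2 fold change -0.25, SE 0.13, edgeR adjusted p = 0.424). Its partner chain Ifnar2 stood at 78.2, 70.5 and 70.2 CPM against 74.0, 76.9 and 65.3 CPM, with overlapping groups and a log2 fold change of 0.02 (SE 0.12). Stat2 overlapped (44.7 to 62.8 CPM over the 6 libraries). So did Usp18 (17.4 to 26.2 CPM), the protease that removes Isg15 from proteins and damps the receptor.

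All 3 cytosolic RNA sensors had log2 fold changes above 0. Ddx58, which encodes RIG-I, stood at 61.0, 79.5 and 76.3 CPM against 60.5, 49.9 and 50.3 CPM. Its lowest knockout-labelled library was just above the highest wild-type library, and the log2 fold change was 0.43 (SE 0.15, edgeR adjusted p = 0.247). Dhx58, which encodes the regulator LGP2, stood at 9.89, 6.91 and 12.5 CPM against 5.90, 7.02 and 2.66 CPM. The groups overlapped, and the log2 fold change of 0.91 (SE 0.39) was 0.58 without wild-type animal 3. Ifih1, which encodes the sensor MDA5, overlapped at 15.4, 29.0 and 23.1 CPM against 21.4, 17.9 and 15.8 CPM (log2 fold change 0.29, SE 0.24). Without knockout-labelled animal 2 it was 0.07.

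All 7 IFIT and ISG effectors had log2 fold changes above 0 (51.2% of all genes), with a median of 0.52. Ifit2, Ifi35 and Isg20 turned below 0 in 3, 2 and 1 of 16 alternatives. At an unadjusted p under 0.05 in edgeR there were 4 of the 7, against 14.2% of all genes. Isg15, a ubiquitin-like protein that is attached to other proteins, stood at 25.8, 18.1 and 17.8 CPM in the knockout-labelled libraries. In the wild type it stood at 13.3, 9.75 and 8.33 CPM. The groups were clearly apart at 20.6 ± 4.54 against 10.4 ± 2.55 CPM (SD, n = 3 each). The log2 fold change was 0.98 (SE 0.25, edgeR adjusted p = 0.178). It passed with DESeq2 (adjusted p = 0.0248) and the edgeR exact test (adjusted p = 0.0312). Isg15 lies at 156199424 to 156200818 of chromosome 4 (minus strand), just downstream of the 3 cores shown above.

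Ifit1, whose protein binds foreign RNA, and Ifit3 were also higher in all knockout-labelled libraries than in any wild-type library. Ifit1 stood at 48.4, 45.8 and 73.3 CPM against 43.3, 39.04 and 34.3 CPM (log2 fold change 0.52, SE 0.20, edgeR adjusted p = 0.289). Knockout-labelled animal 3 was well above the other 2, and without it the value was 0.27. Ifit3 stood at 94.8, 90.7 and 102 CPM against 70.3, 87.3 and 56.8 CPM (log2 fold change 0.42, SE 0.16, edgeR adjusted p = 0.292). Wild-type animal 3 was the lowest library, and without it the value was 0.26. Ifit2, the neighbouring gene of the same family, overlapped (18.7 to 31.6 CPM over the 6 libraries). Ifi35 (11.9 to 25.02 CPM) and Ifi44 (2.89 to 9.43 CPM) overlapped too.

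Isg20, an exonuclease that degrades viral RNA, had the largest fitted log2 fold change of the 39 (2.11, SE 0.83), and it rests on 1 library. It stood at 54.3 CPM in knockout-labelled animal 1, at 4.45 and 5.48 CPM in animals 2 and 3, and at 4.44, 5.58 and 4.91 CPM in the wild type. Without animal 1 the log2 fold change was -0.003. In the authors' deposited table Isg20 is listed at a log2 fold change of 2.19 with an FDR of 0.021. Red cell precursor markers were high in the same library. All 7 in the table summed to 1118 CPM in knockout-labelled animal 1, to 56.1 and 78.4 CPM in animals 2 and 3, and to 4.32 to 33.7 CPM in the wild type, with Hba-a1 and Hba-a2 at 0 in all libraries. Their part in the Isg20 value was not tested. Outside the 39, the ISG15-conjugating enzyme gene Ube2l6 showed a like order, with 89.9 CPM in knockout-labelled animal 1 and 19.2 to 28.7 CPM elsewhere. Rsad2, which encodes viperin and was named after its values were seen, stood at 72.5 CPM there and at 6.29 to 12.7 CPM elsewhere.

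**Figure D3:**
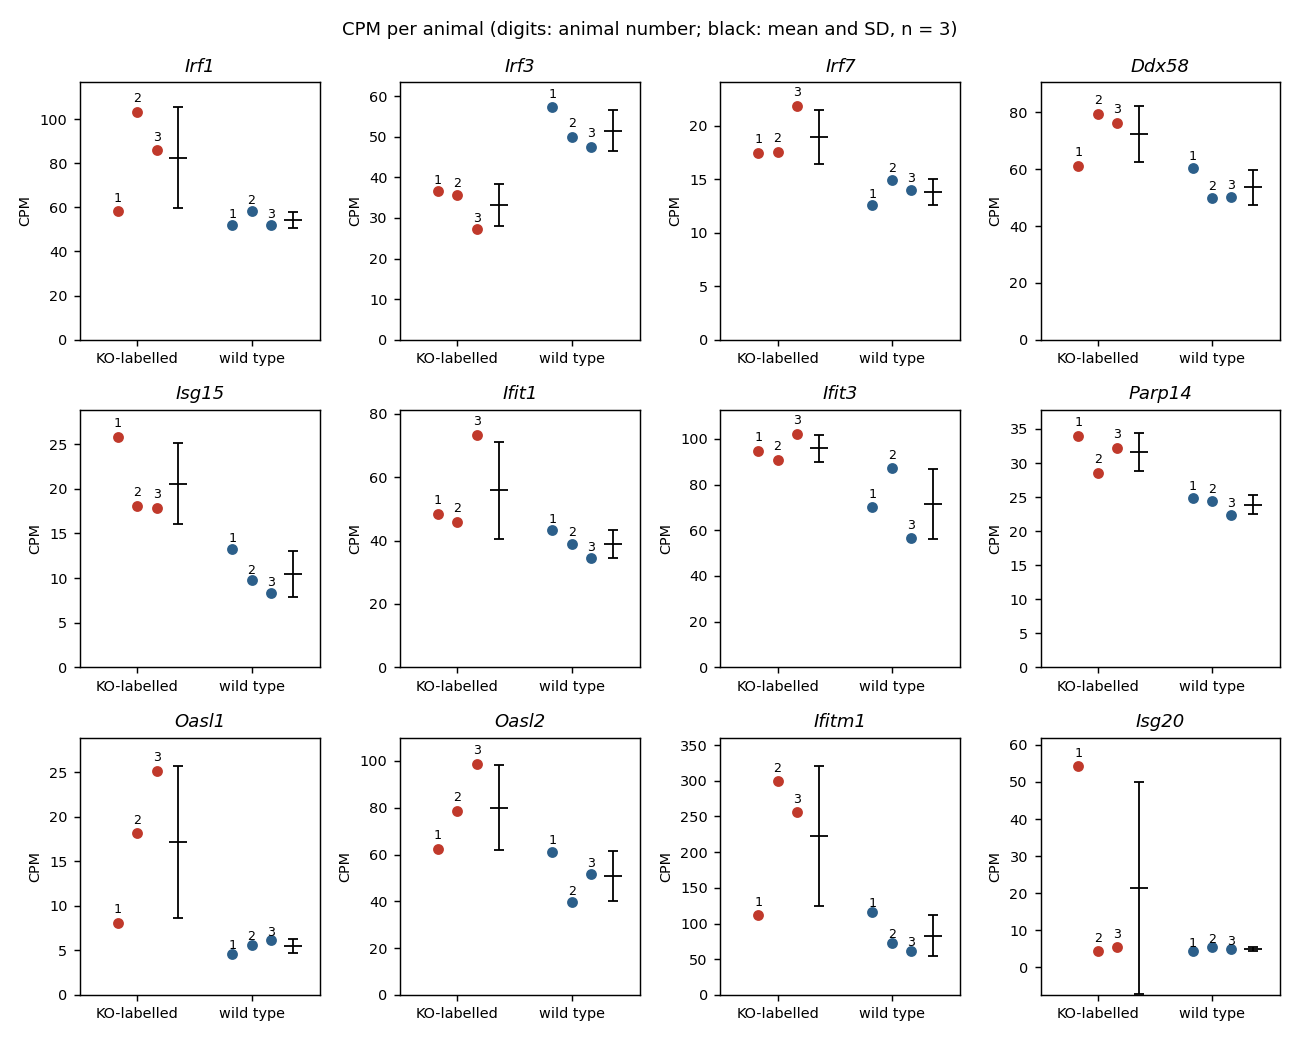
CPM (y axis, linear) of 12 members in each animal, by group, with the mean and SD (n = 3) in black and the animal number beside each point. Isg15 and Irf3 separate by group, whereas the Isg20 difference comes from knockout-labelled animal 1 (54.3 CPM) and Ifitm1 is high in knockout-labelled animals 2 and 3.

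Genes that act on double-stranded RNA were mixed. Oasl1, an OAS-like protein without synthase activity that limits Irf7 translation in mice, stood at 8.13, 18.2 and 25.2 CPM against 4.62, 5.66 and 6.15 CPM in the wild type. The lowest knockout-labelled library was above the highest wild-type library, while the knockout-labelled animals differed among themselves 3.1-fold. The log2 fold change was 1.65 (SE 0.38, edgeR adjusted p = 0.15). It passed with DESeq2 (adjusted p = 0.0032), with the edgeR exact test (adjusted p = 0.0066). Leaving out knockout-labelled animal 1, the edgeR quasi-likelihood test gave an adjusted p of 0.0117. In the authors' deposited table it has an FDR of 0.00256. Over the alternatives tried, its log2 fold change ran from 1.26 to 1.98.

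Oasl2, its neighbour on chromosome 5 (Oasl2 at 114896936 to 114912234, Oasl1 at 114923240 to 114937915, both on the plus strand), stood at 62.4, 78.8 and 98.9 CPM against 61.3, 39.6 and 51.6 CPM. The groups only just failed to overlap (log2 fold change 0.65, SE 0.20, edgeR adjusted p = 0.225). Leaving out knockout-labelled animal 1, it passed in edgeR (adjusted p = 0.0487). The synthase genes Oas1a (3.39 to 5.10 CPM), Oas2 (4.30 to 8.95 CPM) and Oas3 (1.15 to 4.83 CPM) overlapped between the groups. Eif2ak2, encoding the kinase PKR that halts translation, overlapped at 29.5 to 42.8 CPM. Adar, the enzyme that edits adenosine in double-stranded RNA, stood at 77.2, 68.8 and 75.3 CPM against 79.7, 78.0 and 82.5 CPM. Its knockout-labelled values all lay below the wild-type values, with a log2 fold change of -0.12 (SE 0.11).

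The 7 GTPases all had log2 fold changes above 0, from 0.18 to 0.39. However, Mx1 turned below 0 in 5 of 16 alternatives (-1.62 with limma-voom) and Mx2 in 2 (-0.22 without wild-type animal 1). Of the 7, 0 were at an unadjusted p under 0.05 in edgeR, against 14.2% of all genes. Irgm1, which acts on intracellular vacuoles and autophagy, stood at 83.8, 84.6 and 72.4 CPM against 72.1, 76.1 and 48.8 CPM. Gbp2, a guanylate-binding protein, stood at 43.8, 49.7 and 50.4 CPM against 42.4, 46.9 and 38.0 CPM. In both, wild-type animal 3 was the lowest library and the groups overlapped. Without it the log2 fold change of Irgm1 went from 0.29 to 0.09 and that of Gbp2 from 0.18 to 0.08. Gbp3 (19.8 to 32.7 CPM), Irgm2 (25.7 to 43.8 CPM) and Igtp (10.6 to 20.9 CPM) likewise had their lowest value in wild-type animal 3. Igtp and Irgm2 share exon bases in GENCODE M21 (8.0% and 4.4% of their exons), so reads there may not be assigned to either. Transcripts of Mx1 and Mx2, whose proteins trap viral nucleocapsids, were scarce: Mx2 stood at 0.34 to 3.99 CPM. Mx1 had 0 counts in knockout-labelled animal 1, which allows up to 0.13 CPM (3 counts), and 0.91 to 3.14 CPM elsewhere. The C57BL6/J strain is known to carry a defective Mx1 gene.

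The membrane restriction factors differed in direction. Ifitm1, of a family that blocks virus entry at membranes, stood at 112, 299.7 and 256 CPM against 116, 72.1 and 61.3 CPM in the wild type. Knockout-labelled animals 2 and 3 were high, and animal 1 lay within the wild-type range. The log2 fold change was 1.42 (SE 0.35, edgeR adjusted p = 0.173). It passed with DESeq2 (adjusted p = 0.00156), the edgeR exact test (adjusted p = 0.0104) and, leaving out knockout-labelled animal 1, the edgeR quasi-likelihood test (adjusted p = 0.0152). In the authors' deposited table its FDR is 0.000222. Markers of the epithelium of cornea and conjunctiva, tissues other than the RPE-choroid, had the same order of libraries at the top. All 9 had log2 fold changes above 0, with 0 of them at 0 counts throughout. They summed to 3775, 15706 and 12168 CPM against 6367, 2637 and 3099 CPM in the wild type. The part of these markers in the Ifitm1 value was not tested.

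Ifitm3, the most abundant member, stood at 265, 245 and 297 CPM against 222, 256 and 168 CPM. The groups overlapped (log2 fold change 0.32, SE 0.17), and without wild-type animal 3 the value was 0.15. Ifitm2 stood at 63.4 to 105 CPM over the 6 libraries with overlapping groups. In GENCODE M21, 40.9% of its exon bases are shared with Gm45717, a protein-coding model on the same strand. Whether this touched its count is unknown, as the annotation used for counting was not found. The 3 Ifitm genes lie within a stretch of chromosome 7 from 140954837 to 141010770. Only Ifitm1 of them was at an unadjusted p under 0.05 in edgeR (1 of 3, against 14.2% of all genes). Bst2, or tetherin, which holds budding virus at the cell surface, overlapped at 57.2, 37.9 and 49.3 CPM against 43.9, 66.4 and 44.1 CPM. Its promoter stretch, shown above, holds the core as that of Isg15 does. Parp14, an ADP-ribosyltransferase induced by interferon, stood at 34.0, 28.6 and 32.3 CPM against 24.9, 24.5 and 22.3 CPM. Its groups did not overlap (log2 fold change 0.41, SE 0.15, edgeR adjusted p = 0.273).

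**Figure D4:**
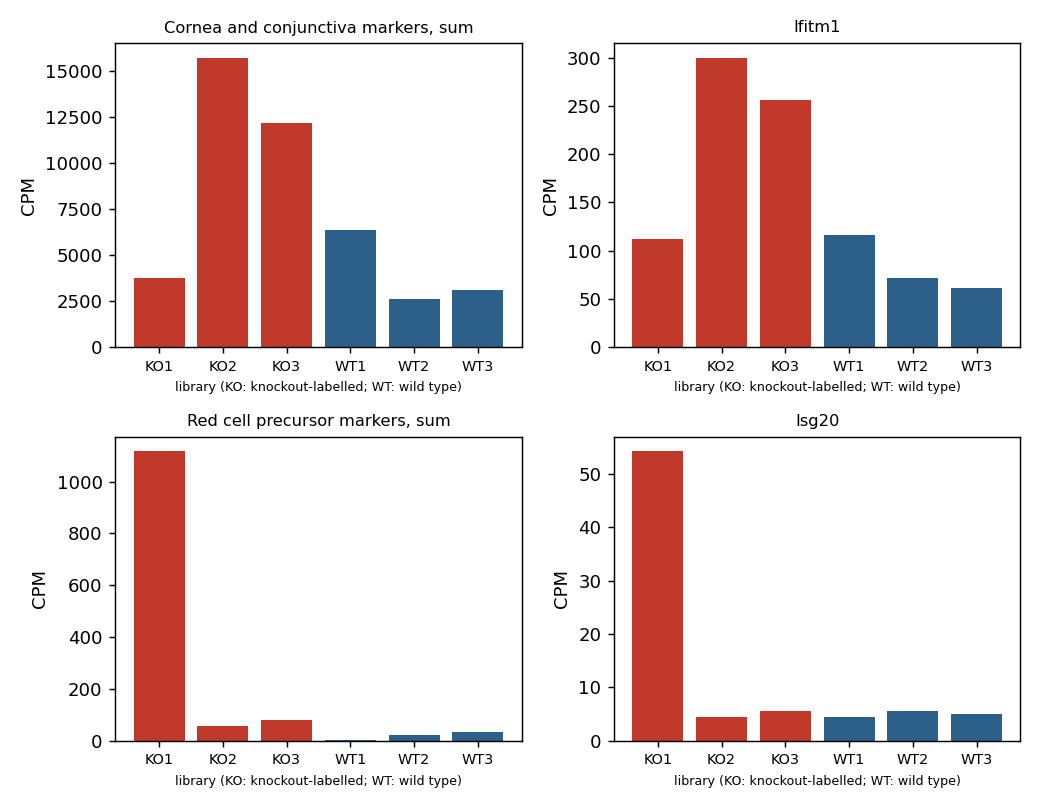
CPM (y axes, linear) in each library (x axis, KO for knockout-labelled, WT for wild type) of summed cornea and conjunctiva markers beside Ifitm1 (top), and of summed red cell precursor markers beside Isg20 (bottom). The top row peaks in knockout-labelled animals 2 and 3, and the bottom row in animal 1.

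Members with and without the promoter core had overlapping ranges of log2 fold change, -0.18 to 0.98 and -0.64 to 2.11. The 17 with a core had a median log2 fold change of 0.29 (14 above 0, 4 at an unadjusted p under 0.05). The 16 with a window but no core had a median of 0.17 (13 above 0, 7 at that p). Over all genes tested, 51.2% were above 0 and 14.2% at that p. Wild-type animal 3 was the lowest library for 11 of the 17 with a core and for 7 of the 16 without, against 15.1% of all genes. These groups were not compared by a test.

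**Figure D5:**
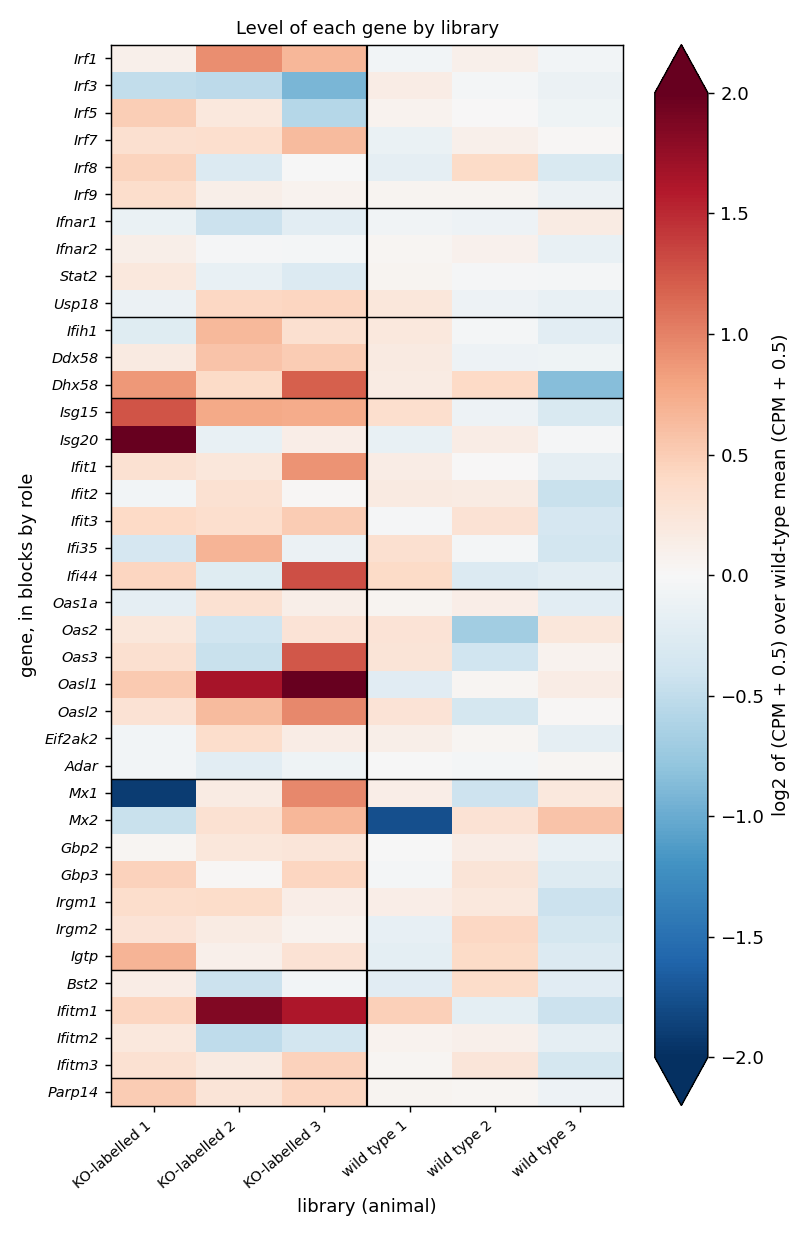
Level of each of the 39 genes (rows, in blocks by role) in each library (columns), as log2 of CPM plus 0.5 over the wild-type mean, with red above and blue below it. Knockout-labelled columns are mostly red, the wild-type animal 3 column is mostly blue, and the deepest cells are Isg20 (red) and Mx1 (blue, 0 counts) in knockout-labelled animal 1, Oasl1 and Ifitm1 (red) in animals 2 and 3, and Mx2 (blue) in wild-type animal 1. The colour scale is capped at 2 in both directions.

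Of 90 other genes of the pathway tested, 0 passed in edgeR's quasi-likelihood test. DESeq2 called 3 of the 90 (3.12% of all genes), the edgeR exact test 3 (2.26%) and limma-voom 0 (0.0823%). At an unadjusted p under 0.05 in edgeR there were 17 (14.2% of all genes), 15 higher and 2 lower (7.55% and 6.62%). Of the 90, 74 had log2 fold changes above 0, with a median of 0.23. Without knockout-labelled animal 1 the edgeR test called 7 (4.95% of all genes). Without wild-type animal 3 the count at an unadjusted p under 0.05 was 10, a share near the 10.8% of all genes. These lists were written for this work around the 39 and share their libraries.

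Of 10 interferon genes in the table, 9 had 0 counts in all 6 libraries, among them Ifnb1, Ifna4 and Ifnk. A count of 0 allows up to 0.10 to 0.16 CPM, depending on the library, where only counting error is considered. Reads with several alignments were tallied apart from the genes. For interferon genes with near-identical copies (Ifna, Ifnl), a count of 0 therefore sets no such limit. Ifng, the type II interferon of lymphocytes, had 10 counts in knockout-labelled animal 2 and 1 count in wild-type animal 2. Receptor genes were present: Ifngr1 stood at 201 ± 6.89 and 181 ± 9.13 CPM and Il10rb at 137 ± 18.1 and 117 ± 12.9 CPM (SD, n = 3 each).

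Of 15 kinases, STATs and feedback genes, 2 were higher and 1 lower at an unadjusted p under 0.05 (7.55% and 6.62% of all genes). Stat3, which relays interleukin signals, stood at 185, 183 and 189.98 CPM against 141, 130 and 116 CPM (log2 fold change 0.53, SE 0.12, edgeR adjusted p = 0.161). Socs1, an inhibitor of interferon signalling, was lower at 2.68, 0.55 and 1.047 CPM against 3.91, 5.58 and 3.59 CPM (log2 fold change -1.60, SE 0.60). Both Stat3 and Socs1 had groups that did not overlap. The most abundant of the list were Jak1 (258 ± 38.2 against 211 ± 7.90 CPM) and Ptpn11 (182 ± 6.84 against 190 ± 14.9 CPM; SD, n = 3 each).

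Of 22 nucleic acid sensors, adaptors and limiting enzymes, 2 were higher at an unadjusted p under 0.05 and 0 lower, where 7.55% of all genes were higher, so the share is near the background. Tlr3, the endosomal receptor for double-stranded RNA, stood at 62.0, 55.9 and 54.5 CPM against 43.9, 38.7 and 40.04 CPM. Its groups did not overlap (log2 fold change 0.49, SE 0.13, edgeR adjusted p = 0.178). Ddx60, a helicase linked to RIG-I, stood at 9.22, 14.8 and 17.9 CPM against 7.48, 6.03 and 8.08 CPM (log2 fold change 0.96, SE 0.29). The abundant members Samhd1 (125 ± 30.2 against 122 ± 9.77 CPM) and Unc93b1 (110 ± 26.2 against 122 ± 6.84 CPM) overlapped (SD, n = 3 each).

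Of 38 other interferon-induced effectors, 34 had log2 fold changes above 0, with a median of 0.42, and 11 were higher at an unadjusted p under 0.05 with 0 lower (7.55% and 6.62% of all genes). Among those with the smallest p were Samd9l, Rtp4, Slfn2, Trim30a and Ifitm10. Whether interferon induces each gene of the list, Ifitm10 included, was not tested. Samd9l, which restricts translation and growth, stood at 46.4, 78.0 and 69.0 CPM against 41.6, 31.6 and 25.7 CPM (log2 fold change 0.97, SE 0.23, edgeR adjusted p = 0.162). Rtp4, a chaperone of membrane receptors, stood at 32.7, 25.96 and 23.6 CPM against 19.4, 18.9 and 17.97 CPM (log2 fold change 0.55, SE 0.17). None of these 5, named for their small p, had overlapping groups. Of all 38, the groups did not overlap for 11, against 20.0% of all genes. The abundant Ly6e stood at 494 ± 47.5 against 382 ± 38.8 CPM and Lgals3bp at 244 ± 58.2 against 219 ± 47.7 CPM (SD, n = 3 each). Of 11 further GTPases, 10 had log2 fold changes above 0. The exception was Gbp7 at 25.6, 33.1 and 30.7 CPM against 38.95, 47.6 and 34.7 CPM (log2 fold change -0.44, SE 0.17), with groups that did not overlap. Ifi47 stood at 31.7 ± 1.28 against 24.8 ± 4.13 CPM (SD, n = 3 each).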

How the data were processed

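The authors deposited whole-number read counts per gene for each animal. The submitters' processing notes name Bowtie, TopHat, HTSeq and the build mm10. No version, annotation or strand setting was found in the labels or headers. The other deposited table gives log2 fold changes, log2 CPM, p-values and FDR that the authors computed in edgeR. Its sign is wild type over knockout and was turned here. The counter's 5 tally rows were left out. Its tally of reads with several alignments was 22.9% to 25.1% of all rows in the knockout-labelled libraries. In the wild type it was 18.7% to 19.4%. Counts of genes with near-identical copies (Ifit, Oas, Gbp, Ifitm, Ifna, Ifnl) are therefore uncertain.

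The main test was edgeR 4.0.16 (R 4.3.3). It used filterByExpr (minimum count 10, minimum total 15), TMM factors, a quasi-likelihood fit on genotype alone and Benjamini-Hochberg adjustment over 15796 genes, with calls at an adjusted p under 0.05. The SE is the absolute log2 fold change over the square root of F. The common biological coefficient of variation was 0.28. Alternatives used DESeq2 1.42.0, limma 3.58.1, other factors and filters, a replicate block and each library left out. Loci and GC content came from GENCODE M21 and promoters from RefSeq (both GRCm38). The test was checked on simulated counts. The labels list the replicates as separate animals. Limits from 0 counts cover counting error only.

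The members and lists were chosen with earlier results of these data known. All 6 values are given for members at an unadjusted p under 0.05, members whose groups do not overlap, and the 2 most abundant per role. From each pathway list up to 6 genes at that p and the 2 most abundant are named, and some genes the rule would name are not reported here. Ube2l6, Rsad2 and Bst2 were singled out after their values were seen.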

Additional observations from a re-analysis of the deposited data

How the results depend on the processing

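Over 16 alternatives and 624 values of single members, the direction was kept in 595 and turned in 29, none of which passed (adjusted p of at least 0.64). The turns fell on 13 members, and 1 of the 13 members at an unadjusted p under 0.05 was among them, Isg20. Mx1 was at -1.62 with limma-voom, -0.51 with the replicate block and -0.47 with the sex covariate. Ifnar2 was at -0.00083 with no filter beyond 1 count, and with the GC correction Ifit2 was at -0.040 and Bst2 at 0.037. Leaving out single libraries gave ranges of -0.14 to 0.37 for Irf5, -0.14 to 0.34 for Irf8, -0.070 to 0.066 for Ifnar2, -0.22 to 0.040 for Stat2, -0.0029 to 2.59 for Isg20, -0.10 to 0.20 for Ifit2 and -0.23 to 0.34 for Ifi35. They were -0.032 to 0.24 for Oas1a, -0.20 to 0.26 for Oas2, -0.014 to 1.03 for Oas3, -0.81 to 0.79 for Mx1, -0.22 to 0.77 for Mx2 and -0.24 to 0.13 for Bst2. The cause was not tested.

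The count of genes called was 15 with upper-quartile factors, 22 with no filter beyond 1 count, 16 with a minimum CPM of 1 in 3 libraries, 493 with DESeq2, 13 with limma-voom, 357 with the edgeR exact test and 1 each with the replicate block and the sex covariate. It ran from 0 to 795 when single libraries were left out. Members called were 4 with DESeq2 and 4 with the edgeR exact test, and 0 to 5 when single libraries were left out. With single libraries left out, 6 to 13 members were at an unadjusted p under 0.05, 10 to 20 had groups that did not overlap, 28 to 32 were above 0 and the median ran from 0.18 to 0.38. The GC correction and the sex covariate (read from Xist, animal 1 of each group being female) were chosen after seeing the data. Samples with the same animal number did not deviate together over all genes tested (correlations of -0.15, -0.15 and -0.11). Such a correlation over all genes cannot exclude a factor shared by animals of the same number, such as sex in animal 1. With the replicate block 9 members were at an unadjusted p under 0.05, 0 were called, 32 were above 0 and the median was 0.26.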
